A study of Mus musculus with 5 samples.

Results

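The DNA replication licensing genes Cdt1, Cdc6, Gmnn, Mcm2, Mcm3, Mcm4, Mcm5, Mcm6, Mcm7 and Pcna were followed in mouse whole blood. They were chosen by name, with earlier results of these data known. Every probe set annotated with 1 of these symbols and no other was taken. This gave 25 probe sets for the 10 genes, of 45101 probe sets on the array and 18193 genes with such a probe set. Whole blood was taken by cardiac puncture from adult female first-generation hybrids of 2 crosses and hybridised to Affymetrix arrays, 1 per sample. The AKRxFVB F1 samples (2 arrays) came from AKR/J crossed with FVB/NJ, and the DBAxFVB F1 samples (3 arrays) from DBA/2J crossed with FVB/NJ. Both groups thus share the FVB/NJ parent, and no treatment other than Avertin anaesthesia before death is named for either. The study asked which genes differ in blood between the untreated genotypes. Whether the arrays of 1 cross stand for separate animals is not stated, so the p-values measure only how far these samples scatter, which may be technical scatter.

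Licensing is the loading of the replicative helicase onto DNA before S phase. The origin recognition complex and CDC6 recruit CDT1, which brings the ring of MCM2 to MCM7 to the origin, and geminin (Gmnn) binds CDT1 and stops loading once S phase has begun. PCNA is the sliding clamp of the fork, and CDT1 bound to it on DNA is marked for destruction by a CUL4 ubiquitin ligase. These genes are transcribed in cycling cells under E2F control, and most circulating leukocytes are resting while mature red cells and platelets have no nucleus.

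The promoters of most members share a sequence feature that the choice of genes did not use. RefSeq windows on GRCm38.p6, from 250 bases before to 50 bases after a transcript start, were found for 8 of the 10 genes (not for Mcm4 and Gmnn). They were searched on both strands for the E2F consensus, spelled out as TTTCCCGC, TTTCGCGC, TTTGCCGC and TTTGGCGC. At least 1 match lay in the windows of 6 of these 8 genes, Cdt1, Cdc6, Mcm3, Mcm5, Mcm6 and Mcm7, and none in those of Mcm2 and Pcna. Of all 27025 genes in the table, 2.6% held a match, and so did 2.26% of the 32851 windows of 300 bases. A further match in each of Mcm6 and Mcm7, and those of Mcm3, are not printed. The stretches below show the match of Cdt1, the member with the lowest adjusted p, and 1 stretch each of 4 others. Matching letters are in capitals, on the strand of the gene.
Cdt1: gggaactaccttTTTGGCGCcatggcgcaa
Cdc6: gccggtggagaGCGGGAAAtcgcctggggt
Mcm5: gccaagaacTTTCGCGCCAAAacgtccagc
Mcm6: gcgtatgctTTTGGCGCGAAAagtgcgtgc
Mcm7: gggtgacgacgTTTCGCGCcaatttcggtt
The Cdt1 stretch is chr8:122568035-122568064 (plus strand), and its match covers bases 33 to 40 after the start. That of Cdc6 is chr11:98908002-98908031 (plus strand), with a match on the opposite strand that begins 138 bases before the start. In Mcm5 (chr8:75109347-75109376, plus strand) and Mcm6 (chr1:128359795-128359824, minus strand), a match on the gene's strand overlaps one on the other strand. The Mcm7 stretch is chr5:138171849-138171878 (minus strand). The 418 tested genes with a match had a median difference between the crosses of 0.04 on the log2 scale, and the 9519 without one 0.05.

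Most licensing probe sets read low in blood. The deposited values were taken as log2 expression, and 23 of the 25 probe sets stayed below 4 on every array. The exceptions were 1 probe set of Cdt1 and that of Pcna. A probe set was tested when its mean over the 5 arrays reached 2.51, the median of that mean among non-control probe sets. This left 15 probe sets of 8 genes, and all probe sets of Cdc6 and Mcm6 fell below it. Nearest to this limit were Mcm3 1420028_s_at (mean 2.52) and Cdt1 1424144_at (2.55) above it, and Mcm2 1448777_at (2.44) and Mcm5 1459658_at (2.41) below it. No limit of detection is stated for these values, so a reading near 2 to 3 does not show whether the transcript was present.

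**Figure D1:**
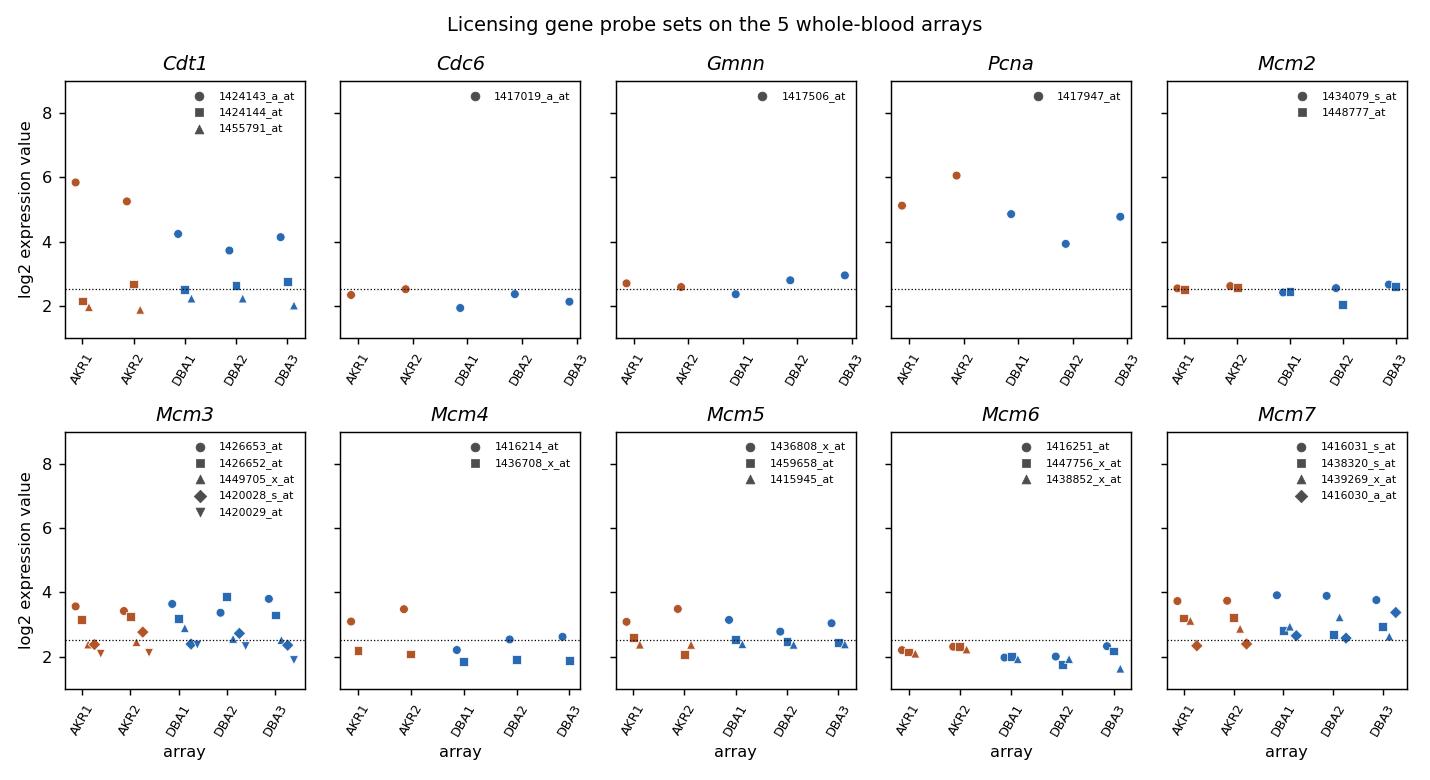
Log2 expression value (y axis) of the 25 licensing gene probe sets on each array (x axis, AKR1 and AKR2 for AKRxFVB F1 in brown, DBA1 to DBA3 for DBAxFVB F1 in blue), with 1 marker shape per probe set and the filter of 2.51 as a dotted line. Only Cdt1 1424143_a_at and Pcna rise above 4 on any array, and in both each brown point is above every blue one. The other 23 probe sets lie below 4 on all arrays.

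No licensing probe set passed the test between the crosses. With limma, 0 of the 15 tested had a Benjamini-Hochberg adjusted p below 0.05, as had 0 of all 22519 probe sets tested (0%). At an unadjusted p below 0.05, 4 of the 15 were lower in DBAxFVB F1 and 0 were higher, against 6.79% and 3.59% of all tested probe sets. The 4 belong to Cdt1, Pcna, Mcm4 and Mcm7. Of the 15 tested, 5 had a mean below the filter in 1 cross and passed it through the other, among them Mcm4 1416214_at and Mcm7 1416030_a_at, so the count over tested probe sets is only a description. The 2 crosses did not overlap for 4 probe sets that were lower in DBAxFVB F1 and for 3 that were higher, against 12.6% and 16.4% of all those tested. Counted over all 15, the direction was split, with 8 lower and 7 higher and a median difference (DBAxFVB F1 minus AKRxFVB F1) of -0.04, against 0.04 over all tested probe sets. Leaving out the second array of either cross took the count of 4 to 2 (AKRxFVB F1 array 2) and likewise to 2 (DBAxFVB F1 array 2).

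**Figure D2:**
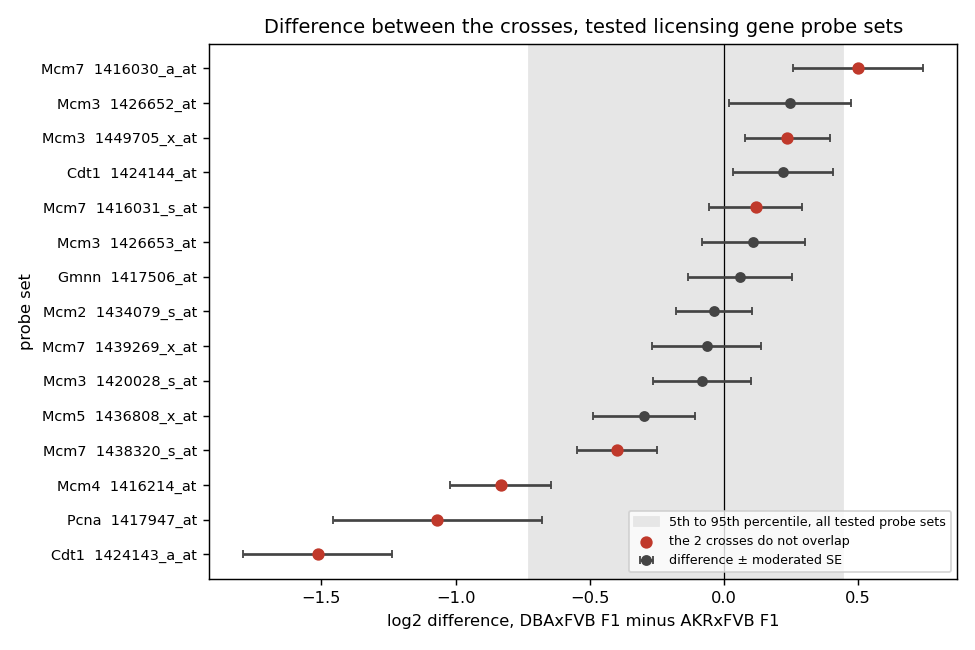
Log2 difference between the crosses (x axis, DBAxFVB F1 minus AKRxFVB F1) with its moderated standard error for the 15 tested licensing probe sets (y axis). Red points mark probe sets whose crosses do not overlap, and the grey band spans the 5th to 95th percentile of all tested probe sets, from -0.73 to 0.44. Cdt1 1424143_a_at, Pcna and Mcm4 1416214_at lie left of the band, Mcm7 1416030_a_at lies right of it, and the rest lie within it.

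Cdt1, the loader of the helicase, had the largest difference among the members, but on 1 of its 3 probe sets. Probe set 1424143_a_at read 5.84 and 5.25 in AKRxFVB F1 and 4.24, 3.72 and 4.14 in DBAxFVB F1. Both AKRxFVB F1 values were above all DBAxFVB F1 values, by 1.01 at the closest. The means were 5.55 ± 0.42 (SD, n = 2) and 4.03 ± 0.27 (SD, n = 3), a difference of -1.51 ± 0.28 (SE), or 2.85-fold lower in DBAxFVB F1 (limma adjusted p = 0.152). Of the 2697 tested genes with a mean of 4 to 6, 24 (Cdt1 included) had a difference this low or lower. The other 2 probe sets did not follow it. Probe set 1424144_at, annotated with the same sequence record, read 2.15 and 2.68 in AKRxFVB F1 and 2.52, 2.64 and 2.77 in DBAxFVB F1, so that the crosses overlapped, with a difference of 0.22 ± 0.19 (limma adjusted p = 0.708). Probe set 1455791_at, below the filter, read 1.96 and 1.88 against 2.23, 2.23 and 2.01, higher on every DBAxFVB F1 array. The maker's suffix "_a" marks a probe set that matches several transcripts of the same gene. Whether the probe sets differ from each other in their response was not tested.

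Gmnn and Cdc6 differed less between the crosses than Cdt1 1424143_a_at, but at their low readings the absence of a difference is not shown. Gmnn, the inhibitor of CDT1, read 2.70 and 2.59 in AKRxFVB F1 and 2.36, 2.80 and 2.95 in DBAxFVB F1. The lowest and the highest values were both in DBAxFVB F1, and the difference was 0.06 ± 0.19 (SE; limma adjusted p = 0.932). Cdc6, the loading ATPase, was below the filter, with 2.34 and 2.52 against 1.93, 2.37 and 2.13. Its means differed by -0.29, and the crosses overlapped by a narrow margin.

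Pcna, the replication clamp, read 5.12 and 6.06 in AKRxFVB F1 and 4.86, 3.93 and 4.78 in DBAxFVB F1. The crosses did not overlap, but AKRxFVB F1 array 1 and DBAxFVB F1 array 1 lay only 0.26 apart, while arrays within a cross differed by up to 0.94. The means were 5.59 ± 0.66 (SD, n = 2) and 4.52 ± 0.51 (SD, n = 3), a difference of -1.07 ± 0.39 (SE), or 2.10-fold (limma adjusted p = 0.407). It was -0.60 without AKRxFVB F1 array 2, -0.77 without DBAxFVB F1 array 2 and -1.54 without AKRxFVB F1 array 1. In the reference table the pseudogenes Pcna-ps1 and Pcna-ps2 are listed, and their share of this signal was not tested.

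Among the 6 helicase subunits, Mcm4 differed most, and both of its probe sets were lower on each DBAxFVB F1 array. Probe set 1416214_at read 3.09 and 3.47 in AKRxFVB F1 and 2.20, 2.53 and 2.61 in DBAxFVB F1. The means were 3.28 ± 0.27 (SD, n = 2) and 2.45 ± 0.22 (SD, n = 3), the second below the filter of 2.51, and the difference was -0.83 ± 0.19 (SE; limma adjusted p = 0.205). Probe set 1436708_x_at, below the filter, read 2.20 and 2.08 against 1.83, 1.91 and 1.89. Over the 10 member probe sets below the filter the crosses did not overlap for 2 that were lower and 1 that was higher in DBAxFVB F1, against 9.72% and 12.8% of all probe sets there.

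The 4 probe sets of Mcm7 pointed both ways. Probe set 1438320_s_at read 3.20 and 3.21 in AKRxFVB F1 and 2.82, 2.67 and 2.94 in DBAxFVB F1, a difference of -0.40 ± 0.15 (SE; limma adjusted p = 0.425). Probe set 1416030_a_at read 2.33 and 2.39 against 2.65, 2.57 and 3.37, a difference of 0.50 ± 0.24 (limma adjusted p = 0.529), to which DBAxFVB F1 array 3 gave the highest value. With the replicate block, under which array 3 has no partner, it was 0.25, and without array 3 the probe set was below the filter. For both the crosses did not overlap, in opposite directions. The brightest, 1416031_s_at, read 3.73 and 3.74 against 3.91, 3.89 and 3.76, a difference of 0.12 ± 0.17 (limma adjusted p = 0.831), and the fourth, 1439269_x_at, overlapped, with -0.06 ± 0.20. In the maker's naming "_s" and "_x" mark probe sets that can match more than 1 transcript or share sequence with others.

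The other subunits differed less. The brightest probe set of Mcm3, 1426653_at, read 3.56 and 3.42 in AKRxFVB F1 and 3.64, 3.36 and 3.80 in DBAxFVB F1, and the crosses overlapped. Its difference was 0.11 ± 0.19 (SE), and those of the other 3 tested Mcm3 probe sets lay between -0.08 and 0.25. One of these, 1449705_x_at, had no overlap, at 2.38 and 2.45 against 2.88, 2.55 and 2.51. Its AKRxFVB F1 mean, 2.41, was below the filter, which it passed through DBAxFVB F1. The fifth Mcm3 probe set, 1420029_at, was below the filter and ranged from 1.89 to 2.37. Mcm5 1436808_x_at read 3.08 and 3.48 against 3.14, 2.78 and 3.04, a difference of -0.30 ± 0.19 with overlapping crosses. Leaving out AKRxFVB F1 array 2 gave -0.096, and leaving out array 1 of that cross gave -0.50. A second Mcm5 probe set, 1415945_at, spanned only 0.02 over the 5 arrays, around 2.37, and the third, 1459658_at, ranged from 2.06 to 2.60. Mcm2 1434079_s_at lay between 2.42 and 2.66 on all arrays (difference -0.04 ± 0.14), and 1448777_at between 2.04 and 2.60. The 3 probe sets of Mcm6 had lower means in DBAxFVB F1, with differences of -0.16, -0.25 and -0.34, all below the filter. Of these, 1438852_x_at had no overlap, at 2.09 and 2.22 against 1.92, 1.92 and 1.62.

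The subunits of the ring therefore did not show 1 common shift. Over the 11 tested Mcm probe sets, 6 were lower and 5 higher in DBAxFVB F1, with a median of -0.04 and a range from -0.83 to 0.50. Each tested subunit gene was then taken by its brightest probe set (Mcm2, Mcm3, Mcm4, Mcm5 and Mcm7). Their mean deviation from the 5-array mean was 0.04 and 0.18 in AKRxFVB F1 and -0.10, -0.14 and 0.01 in DBAxFVB F1. The crosses thus did not overlap in this mean, by a narrow margin. Of these genes Mcm4 differed most (-0.83), while Mcm3 and Mcm7 were higher in DBAxFVB F1. The deviation of Cdt1 from its own 5-array mean was 1.20 and 0.61 against -0.40, -0.92 and -0.50.

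Other genes of replication were counted by step, with each gene represented by the brightest of its tested probe sets. These lists too were chosen with earlier results of these data known. None of the lists had a gene past the limma threshold, and neither had the 12421 genes tested (0%). At an unadjusted p below 0.05, 6.4% of all genes were lower and 3.61% higher in DBAxFVB F1. Regardless of p, 41.7% of all genes were lower, and the median difference was 0.05. The licensing genes themselves had 5 of 8 lower and a median of -0.17.

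Of the ubiquitin ligase genes that act on CDT1, 7 of 8 tested were lower in DBAxFVB F1, with a median of -0.19. An unadjusted p below 0.05 was reached by 2 of the 7. Cul4b, a cullin scaffold, read 3.65 and 3.03 in AKRxFVB F1 and 2.32, 2.24 and 2.54 in DBAxFVB F1, a difference of -0.97 ± 0.21 (SE; limma adjusted p = 0.186). Cks1b, a cofactor of the SKP2 ligase, read 3.73 and 4.12 against 3.51, 3.22 and 3.03, a difference of -0.67 ± 0.21. For both genes the crosses did not overlap. The DBAxFVB F1 mean of Cul4b, 2.37, was below the filter, which the gene passed through AKRxFVB F1. Skp2, the substrate receptor of that ligase, differed in the other direction by 0.45 ± 0.22, and its crosses overlapped. It passed the filter through DBAxFVB F1, since its AKRxFVB F1 mean was 2.43. Cul1 passed through AKRxFVB F1, with a DBAxFVB F1 mean just under the filter. The count of 7 of 8 and the list median are therefore only a description. With 1 array left out the list median lay between -0.38 (DBAxFVB F1 array 2) and -0.11 (DBAxFVB F1 array 3).

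The genes that turn the loaded ring into an active helicase lay on the other side. Of 12 tested, 11 were higher in DBAxFVB F1, with a median of 0.18. An unadjusted p below 0.05 was reached by 1 of the 11. Most genes of similar level also read higher there, since 37.5% of the 4651 tested genes with a mean of 3 to 4 were lower, with a median of 0.08. Wdhd1, an adaptor between helicase and polymerase, read 2.35 and 2.65 against 2.74, 3.14 and 2.99, a difference of 0.46 ± 0.18 (SE; limma adjusted p = 0.429). It is the gene counted at an unadjusted p below 0.05, and it passed the filter through DBAxFVB F1, since its AKRxFVB F1 mean was just under the filter. Cdc45, a helicase cofactor, had means of 3.62 ± 0.04 (SD, n = 2) and 3.92 ± 0.16 (SD, n = 3), a difference of 0.29 ± 0.19. For both the crosses did not overlap. Mcm9, a relative of the ring subunits, differed by 0.41 ± 0.33 with overlap. The list median was 0.12 when DBAxFVB F1 array 3 was left out.

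Origin recognition genes had 3 of 6 members above the filter. Orc2 read 3.10 and 3.08 against 3.52, 3.27 and 3.86, a difference of 0.46 ± 0.20 (SE), and Orc3 and Orc1 differed by -0.15 ± 0.22 and 0.05 ± 0.30. Replication fork genes were split, with 6 of 16 lower and a median of 0.06. Rpa1, of the single-strand binding complex, read 4.82 and 4.30 against 3.98, 3.97 and 3.27 (difference -0.82 ± 0.29), and Rfc3, of the clamp loader of PCNA, 2.58 and 2.49 against 3.10, 2.80 and 3.17 (0.49 ± 0.16). Rfc5, of the same loader, differed by 0.22 ± 0.16. The fork median was between -0.01 (without DBAxFVB F1 array 3) and 0.08 with 1 array left out. Nucleotide supply genes had 3 of 5 higher, with the ribonucleotide reductase genes Rrm1 and Rrm2 at 0.26 ± 0.15 and -0.19 ± 0.14 and the thymidine kinase gene Tk1 at 0.23 ± 0.20. Their median was 0.17, and between 0.01 (without DBAxFVB F1 array 1) and 0.22 with 1 array left out, with 0.10 without AKRxFVB F1 array 2.

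The regulators of S phase entry and the genes of mitosis had medians slightly below 0, against a median of -0.17 for the licensing genes. Of 20 tested G1/S genes, 13 were lower, with a median of -0.08, and 0 had an unadjusted p below 0.05. The mean level of the G1/S list was 4.16 to 4.20 in AKRxFVB F1 and 4.03 to 4.15 in DBAxFVB F1, without overlap. That of the licensing list was likewise lower without overlap, at 3.42 to 3.54 against 2.99 to 3.22. So was the CDT1 ligase list, at 3.97 to 4.08 against 3.50 to 3.92. The licensing mean takes each gene by its brightest probe set, with Cdc6 and Mcm6 below the filter. In it Cdt1 1424143_a_at (-1.51), Pcna (-1.07) and Mcm4 (-0.83) differed most, while Gmnn, Mcm3 and Mcm7 were higher in DBAxFVB F1. It is thus no shift common to the list. The helicase activation list was higher without overlap, at 3.06 to 3.10 against 3.175 to 3.32. The other replication lists and the mitosis list overlapped. The pocket protein gene Rbl2 differed by -0.36 ± 0.16 (SE), Myc by -0.54 ± 0.26 and the kinase inhibitor gene Cdkn1a by 0.32 ± 0.21. Of 11 mitotic genes, 7 were lower, with a median of -0.11. The mitotic kinase gene Cdk1 read 2.67 and 2.89 against 3.06, 3.19 and 3.33 (difference 0.42 ± 0.16), the topoisomerase gene Top2a differed by 0.30 ± 0.14 and the cyclin gene Ccnb2 by -0.33 ± 0.18. With 1 array left out the G1/S median lay between -0.11 and 0.01, the latter without AKRxFVB F1 array 2. The mitotic median became -0.27 with AKRxFVB F1 array 1 left out, 0.014 with array 2 of that cross left out, and -0.0042 when DBAxFVB F1 array 2 was left out.

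**Figure D3:**
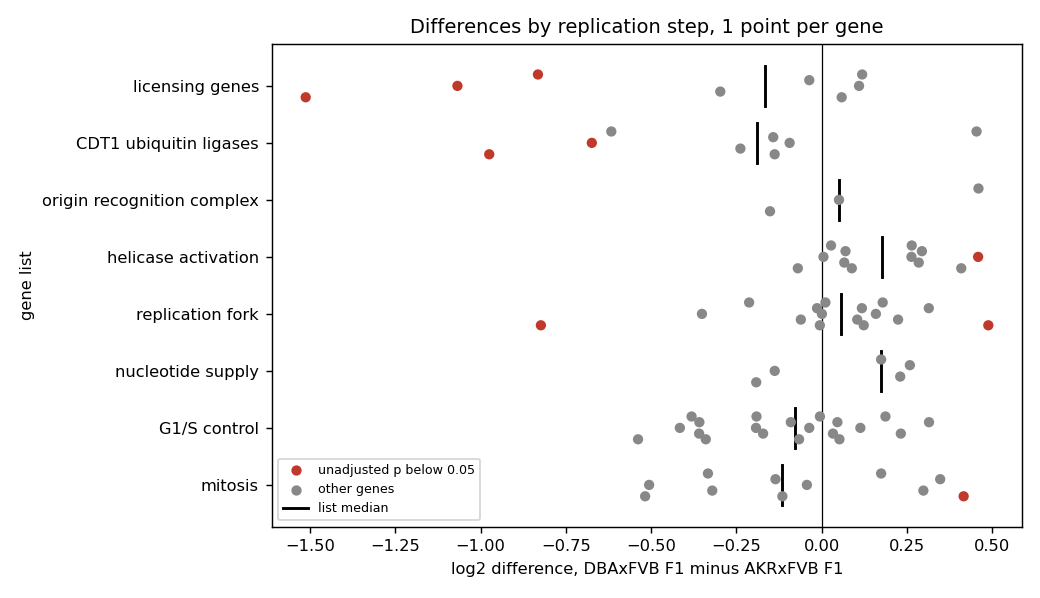
Log2 difference between the crosses (x axis, DBAxFVB F1 minus AKRxFVB F1) for the tested genes of the licensing list and 7 other replication and cell cycle lists (y axis), 1 point per gene, with red points at an unadjusted p below 0.05 and a black bar at each list median. Helicase activation genes lie mostly right of 0 (11 of 12), CDT1 ubiquitin ligase genes mostly left of it (7 of 8), and no point passed the adjusted threshold.

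The brightest markers of the common blood cells read well above the filter, and the mean levels of their lists moved between the arrays as well. The brightest genes of the lists had 5-array means of 13.53 for Alas2 (erythroid), 10.76 for Ppbp (platelet), 8.69 for Lyz2 (monocyte), 6.98 for S100a9 (neutrophil), 6.40 for Cd8a (T cell) and 6.33 for Ms4a1 (B cell). Those of the lists of rarer or foreign cells were 5.65 for Xbp1 (plasma cell), 4.61 for Myl3 (cardiac muscle), 3.72 for Gata2 (blood progenitor), 3.25 for Gzma (natural killer cell) and 3.18 for Ms4a3 (neutrophil precursor). Without a stated limit of detection, the lowest of these readings do not show that such cells were present. In bulk blood, fewer cells of a type and less RNA per cell cannot be told apart.

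Most B cell, T cell and platelet markers were lower in DBAxFVB F1, as were Cdt1 1424143_a_at and Pcna. The mean level of the B cell list (9 of 10 genes on the array) was 4.30 to 5.20 in AKRxFVB F1 and 3.71 to 4.30 in DBAxFVB F1, and that of the T cell list (10 of 11) 4.22 to 4.34 against 3.78 to 4.15. The B cell groups thus overlapped and the T cell groups did not, with 8 of 9 and 8 of 10 genes lower. Cdt1 1424143_a_at, the B cell list and the progenitor list were highest on AKRxFVB F1 array 1 and lowest on DBAxFVB F1 array 2. Pcna and the T cell list were both highest on AKRxFVB F1 array 2. So were the platelet, natural killer cell, mitosis, G1/S, CDT1 ligase and housekeeping lists. The platelet list ranged from 7.40 to 8.48 and from 6.46 to 8.08, the erythroid list from 6.0 to 6.21 and from 5.58 to 6.41. All 7 tested platelet genes were lower, with a median of -0.52, against -0.63 for the B cell and -0.27 for the T cell list. Of the tested natural killer cell genes 2 of 3 were lower, of monocyte genes 3 of 6, of erythroid genes 4 of 9 and of neutrophil genes 3 of 9. Monocyte markers (4.93 to 5.27 against 4.62 to 5.36), neutrophil markers (4.03 to 4.39 against 4.08 to 4.49), natural killer cell markers (2.53 to 3.04 against 2.44 to 2.71) and plasma cell markers (3.34 to 3.57 against 3.38 to 3.51) overlapped. The mean level of the neutrophil precursor list was higher in DBAxFVB F1, at 2.66 to 2.74 against 2.89 to 2.97, with 4 of 4 tested genes higher. That of the cardiac muscle list was higher by a narrow margin, at 2.62 to 2.81 against 2.82 to 3.27. Of its 4 tested genes 2 were lower, Tnnt2 and Myl3, and 4 of its 8 genes were below the filter. Progenitor markers, at 2.94 to 2.99 against 2.91 to 2.94, and the mitosis list, at 3.52 to 3.72 against 3.54 to 3.65, overlapped. Housekeeping genes were lower too, at 6.99 to 7.25 against 5.96 to 6.73 (5 of 5 tested), and 79.4% of the 778 tested genes with a mean of 6 to 15 were lower. The part of cell content in the values of Cdt1, Pcna and Mcm4 was not tested.

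**Figure D4:**
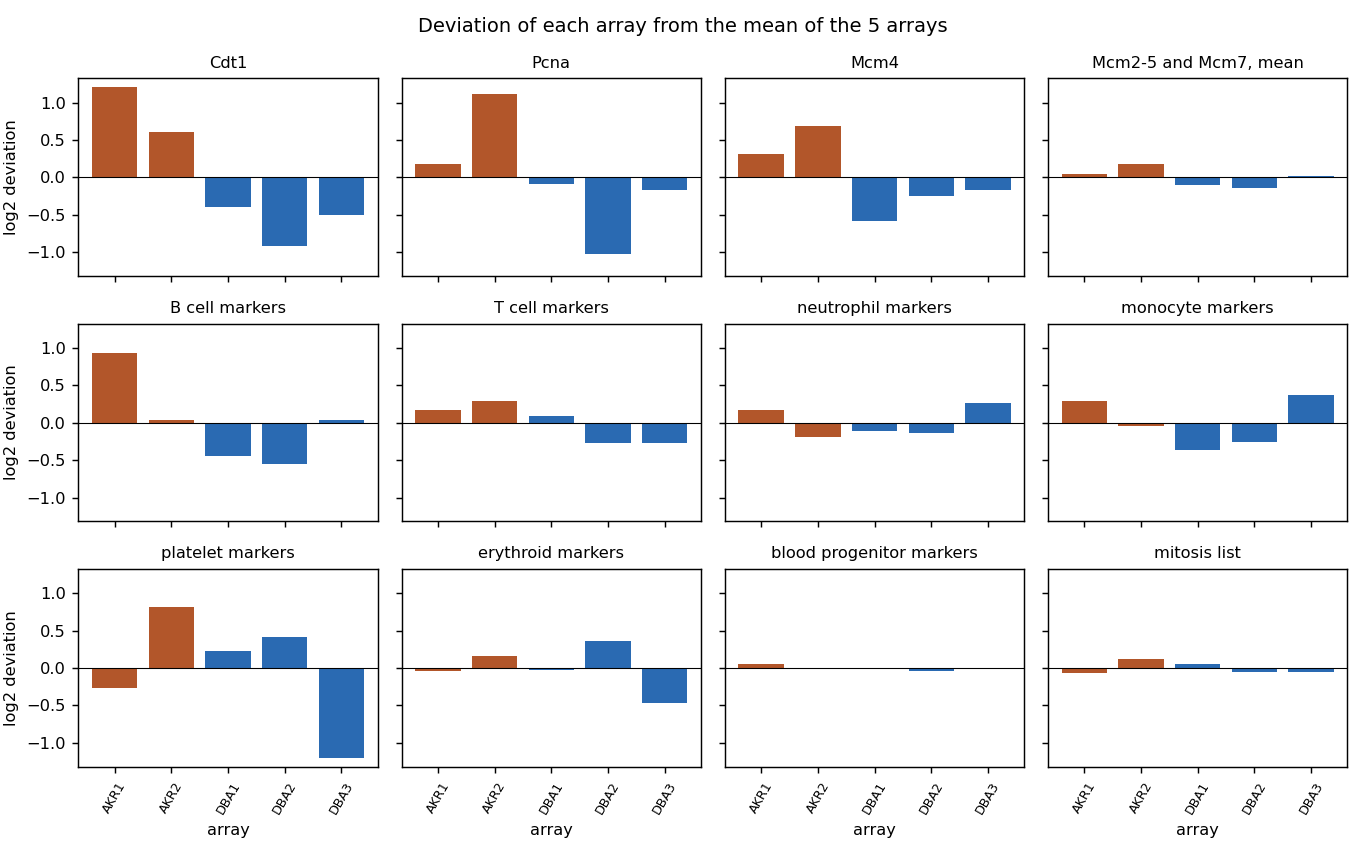
Deviation of each array from the 5-array mean (y axis, log2) for Cdt1 1424143_a_at, Pcna, Mcm4 1416214_at, the mean of 5 Mcm genes, 7 lists of cell type markers and the mitosis list, with AKRxFVB F1 arrays in brown and DBAxFVB F1 arrays in blue. Cdt1, the B cell markers and the progenitor markers share their highest array (AKR1), platelet markers are lowest on DBA3, and progenitor markers stay within 0.05 of their mean.

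The genes whose array pattern lay nearest to Cdt1 1424143_a_at were sought among 12413 other tested genes, by the root mean square distance of the 5 array deviations. They were Cyrib, a regulator of actin remodelling (distance 0.08), Coro1a, a leukocyte actin-binding protein (0.08), and Prkcb, a protein kinase C of lymphocyte signalling (0.09), while the deviations of Cdt1 itself had a root mean square of 0.78. Coro1a read 6.61 and 6.10 in AKRxFVB F1 and 4.93, 4.58 and 5.07 in DBAxFVB F1. For the mean of the 5 Mcm genes, whose own root mean square was 0.11, the nearest were Irx2 (0.02), Prpsap2 (0.03) and Tbc1d7 (0.03). With 5 arrays and a shallow profile many genes lie close, so these names are a description only.

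DBAxFVB F1 array 3 stood apart in technical readings, with a median of 7.99 over 18 hybridisation controls against 10.01 to 10.12 on the other 4 arrays. Its 457 probe sets of mean 8 or more lay -0.83 from their 5-array mean, and its 3-prime minus 5-prime difference was the highest, at 1.32 for Actb and 1.33 for Gapdh. On the other arrays this sign of RNA quality moved with the cross, at 1.22 and 1.03 for Actb in AKRxFVB F1 against 0.82 and 0.68 on DBAxFVB F1 arrays 1 and 2, and at 1.04 and 0.73 against 0.62 and 0.58 for Gapdh. Cdt1 1424143_a_at had the same order over these 4 arrays. DBAxFVB F1 array 3, highest in this sign, broke the order, with a Cdt1 reading of 4.14, below both AKRxFVB F1 arrays. The part of RNA quality in the Cdt1 difference was not tested. Without DBAxFVB F1 array 3 the differences of Cdt1 1424143_a_at, Pcna and Mcm4 1416214_at were as large, at -1.57, -1.20 and -0.91.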

How the data were processed

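The values deposited by the authors, 1 for each probe set on each array and already normalized, were taken as log2, a base inferred from the range (1.29 to 14.8). MAS5 and RMA are named per the submitters' processing notes, without versions; which gave these values, and the background correction, is not given in the sources used here. Compression of low signals would make differences of dim probe sets too small. Of 45101 probe sets, 64 controls were left out; 34958 had 1 symbol, 932 several and 9211 none in the platform annotation. Array number limits precision. The 22519 probe sets with a 5-array mean of at least 2.51 entered limma 3.58.1 under R 4.3.3 (lmFit and eBayes, with a variance trend, cross as the only term, two-sided, Benjamini-Hochberg threshold 0.05), after a test on simulated data. An exact permutation test of 2 arrays against 3 cannot give a p under 0.1 and was not used.

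All member probe sets are reported, with the 3 genes of smallest p in each of 7 replication lists, the brightest gene of each of 11 cell type lists and the nearest genes. Which of these genes are given array by array was decided after their values were seen. Members and lists were chosen with earlier results of these data known. Alternatives were quantile, median and cyclic loess normalization, other filters, variance models, array weights, a replicate block and each array left out. Python 3.11.15 with pandas 2.3.3 and matplotlib 3.10.9 prepared annotation and plots.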

Additional observations from a re-analysis of the deposited data

How the results depend on the processing

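Under the 14 alternatives the number of licensing probe sets, of genes in the 7 replication lists and of all probe sets past the limma threshold was 0 each time. Cdt1 1424143_a_at kept its sign in all 14 (-1.81 to -1.22, limma adjusted p from 0.0724 to 0.828), as did Pcna (-1.54 to -0.60) and, in the 13 where it was tested, Mcm4 1416214_at (-1.02 to -0.64). The count of 4 licensing probe sets lower at an unadjusted p below 0.05 was 2 with the filter at the 75th percentile, which left out Mcm4 and Mcm7 1438320_s_at, 6 of 25 without a filter, and from 2 to 4 when single arrays were left out. The dim probe sets changed sign in some settings. Mcm7 1439269_x_at was 0.033 with array weights and, with 1 array left out, between -0.21 and 0.088. Cdt1 1424144_at ranged from -0.044 to 0.28, Gmnn from -0.064 to 0.23 and Mcm2 1434079_s_at from -0.096 to 0.028 with 1 array left out. The titles number the arrays of both crosses, but nothing says that equal numbers share an origin. With the replicate block Cdt1 was -1.57 (limma adjusted p = 0.0787), Gmnn -0.064 and Mcm7 1439269_x_at 0.088, the same as without DBAxFVB F1 array 3, which has no partner, and 0 probe sets passed, as in the fit without the block. Deviations of equal-numbered arrays from their cross means correlated at -0.26 and 0.17. With only 2 AKRxFVB F1 arrays these deviations mirror each other, so the correlations cannot decide whether equal numbers are pairs. The numbers were not taken as pairs because no label says so. Of the list medians, those of the fork and nucleotide genes moved beyond the spread between arrays in 6 and 5 of 15 alternatives.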
